A study of Mus musculus with 11 samples.

Results

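Csf1r, Csf3r, Fcgr1, Fcgr3, Itgam and Cd14 encode surface receptors of monocytes, macrophages and neutrophils, and their transcript levels were followed here in sorted CD8 T cells. The 6 genes make up 6 of the 20259 genes that a row of the array table names alone. For each gene the row that names it alone was taken, and of several such rows the one with the highest mean over all arrays. All 6 were found, and all 6 passed the filter on low signal (mean log2 signal of 4.33).

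The study measured 11 arrays of CD8 T cells from T cell receptor transgenic donor mice that carried the congenic marker Thy1.2. The cells were put into tumor-bearing mice and sorted back from the tumors on Thy1.2. Galectin-3 was either intact (wild type, WT) or knocked out (KO) in donors and hosts. It is a glycan-binding lectin encoded by Lgals3 that macrophages also make and secrete. The genotype pairs are written below as T cell genotype over host genotype. KO/KO stands for KO T cells in KO hosts (n = 4), WT/KO for WT T cells in KO hosts (n = 3, of 4 that the design mentions, with the fourth not analysed here) and WT/WT for WT T cells in WT hosts (n = 4). Hosts of every group carried NT2.5 mammary tumor cells given on day 0. Cyclophosphamide (100 mg/kg) followed on day 8. A vaccine of whole cells that secrete the myeloid growth factor GM-CSF was given on day 9 and the T cells on day 10. Tumors were digested 5 days after the transfer. No age is given for the mice. Host loss of galectin-3 was the same in both KO-host groups, and no group had KO T cells in WT hosts, so the effect of the T cell genotype can be read in KO hosts alone.

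Growth factor receptors of this kind set the number and survival of myeloid cells. Csf1r binds the products of Csf1 and Il34 and is needed by macrophages, while Csf3r binds G-CSF and drives neutrophil production. Fc receptors bind the constant part of antibodies and signal through the common gamma chain, encoded by Fcer1g. Itgam is the alpha chain (CD11b) of the integrin Mac-1, and Cd14 hands bacterial lipopolysaccharide to toll-like receptor 4. In tumors these receptors mark infiltrating macrophages and neutrophils. CD11b is also known on activated mouse CD8 T cells and NK cells, so it is not specific to myeloid cells.

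Csf1r, Csf3r and Itgam are textbook targets of PU.1, the ETS family transcription factor encoded by Spi1 that directs myeloid development. The 150 bases before the gene start are shown for the 4 of 6 receptors that were searched. They are given 5′ to 3′ along the gene, with starts from the RefSeq promoter table (mouse build GRCm38.p6). Csf1r and Cd14 were left out of the search, so their promoters are not described. Capitals mark the letters GAGGAA, the core read by PU.1, or TTCCTC, the same letters on the opposite strand, and in Fcgr1 also TTCCCAGAA, a match to TTCNNNGAA, the GAS element read by STAT factors.
Csf3r, chr4:126024509-126024658, plus strand: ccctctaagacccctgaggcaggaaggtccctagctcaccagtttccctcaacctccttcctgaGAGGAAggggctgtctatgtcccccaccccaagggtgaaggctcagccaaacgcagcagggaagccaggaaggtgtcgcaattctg
Fcgr1, chr3:96293970-96294119, minus strand: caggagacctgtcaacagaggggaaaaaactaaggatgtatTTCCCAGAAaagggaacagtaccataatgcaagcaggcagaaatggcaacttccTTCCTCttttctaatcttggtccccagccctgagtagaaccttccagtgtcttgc
Fcgr3, chr1:171059404-171059553, minus strand: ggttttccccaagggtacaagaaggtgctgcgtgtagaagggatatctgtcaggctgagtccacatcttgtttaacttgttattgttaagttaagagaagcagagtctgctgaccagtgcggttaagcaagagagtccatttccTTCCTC
Itgam, chr7:128062490-128062639, plus strand: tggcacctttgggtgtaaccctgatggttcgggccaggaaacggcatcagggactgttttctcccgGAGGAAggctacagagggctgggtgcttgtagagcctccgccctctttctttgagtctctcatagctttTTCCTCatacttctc
For Fcgr3, the first of 2 listed starts was used.

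The letters GAGGAA were found on 1 strand or the other in 4 of 4 searched promoters, within 250 bases before the start, against 23.3% of 32851 mouse promoter windows of the same length. Csf3r held 1 match between 86 and 81 bases before the start. Fcgr1 held 1 between 55 and 50 bases and Fcgr3 1 between 6 and 1 bases, both on the opposite strand. Itgam held 2, at 84 to 79 bases and, on the opposite strand, at 15 to 10 bases before the start. The longer form GAGGAAGT was in 0 of 4 (2.44% of all windows), and it contains the shorter motif. TTNNGNAA, read by C/EBP factors, was in 2 of 4 (36.8% of all windows), Fcgr3 and Itgam. TTCNNNGAA was in 1 of 4 (7.02% of all windows), at 109 to 101 bases before the start of Fcgr1, and its palindromic letters are the same site on both strands. Neither the interferon regulatory factor (IRF) element (2.98% of all windows) nor TGANTCA, read by AP-1 (6.75% of all windows), was found in the 4. A match describes letters and no binding was measured in these samples.

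The values are log2 signals, so a difference of 1 is a doubling, and the small number of arrays limits their precision. Pairs of arrays correlated between 0.941 and 0.974 over genes. Signal of the labelled cell type was present, with the T cell co-receptor gene Cd8a between 10.99 and 11.14 in KO/KO, 10.97 and 11.31 in WT/KO and 10.93 and 11.07 in WT/WT arrays. Cd8a does not measure how far other cells were left out by the sort. Lgals3 checked the genotype of the T cells, at 7.43 ± 0.14 (mean ± SD) in KO/KO, 8.27 ± 0.22 in WT/KO and 8.31 ± 0.17 in WT/WT arrays, and its KO/KO arrays lay below all others. Its KO/KO signal stayed above the filter, at 0.56-fold of WT/KO (limma adjusted p = 0.661), and the source of this signal was not tested. WT/KO and WT/WT differed by -0.03 (SE 0.14) in Lgals3, so the host genotype was not checked by it. Arrays 1 and 4 of the WT/WT group had a narrower range of values, with slopes of 0.956 and 0.934 on the mean of all arrays, against 0.989 to 1.04 in the other 9 arrays. The receptors were also fitted without these arrays, and the main changes are given below. Values of partner, pathway and marker genes are given with all arrays only. Whether RNA of 1 mouse or of a pool was put on an array is not stated, so the p-values cover only the variation from array to array, part of which may be technical.

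All 6 receptors had higher mean signals in KO/KO and in WT/KO than in WT/WT arrays. KO/KO differs from WT/WT in the genotype of the T cells as well as of the hosts. Csf1r, Csf3r and Itgam were higher in every one of the 7 KO-host arrays than in every WT-host array. KO/KO and WT/KO means, from separate KO hosts, differed by at most 0.21 on the log2 scale in any receptor, with wide intervals. No receptor passed the threshold of limma over all genes tested, nor did any other gene. In a bulk sample, a cell type that is more numerous and one that makes more RNA per cell cannot be told apart, which holds for all values below.

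**Figure D1:**
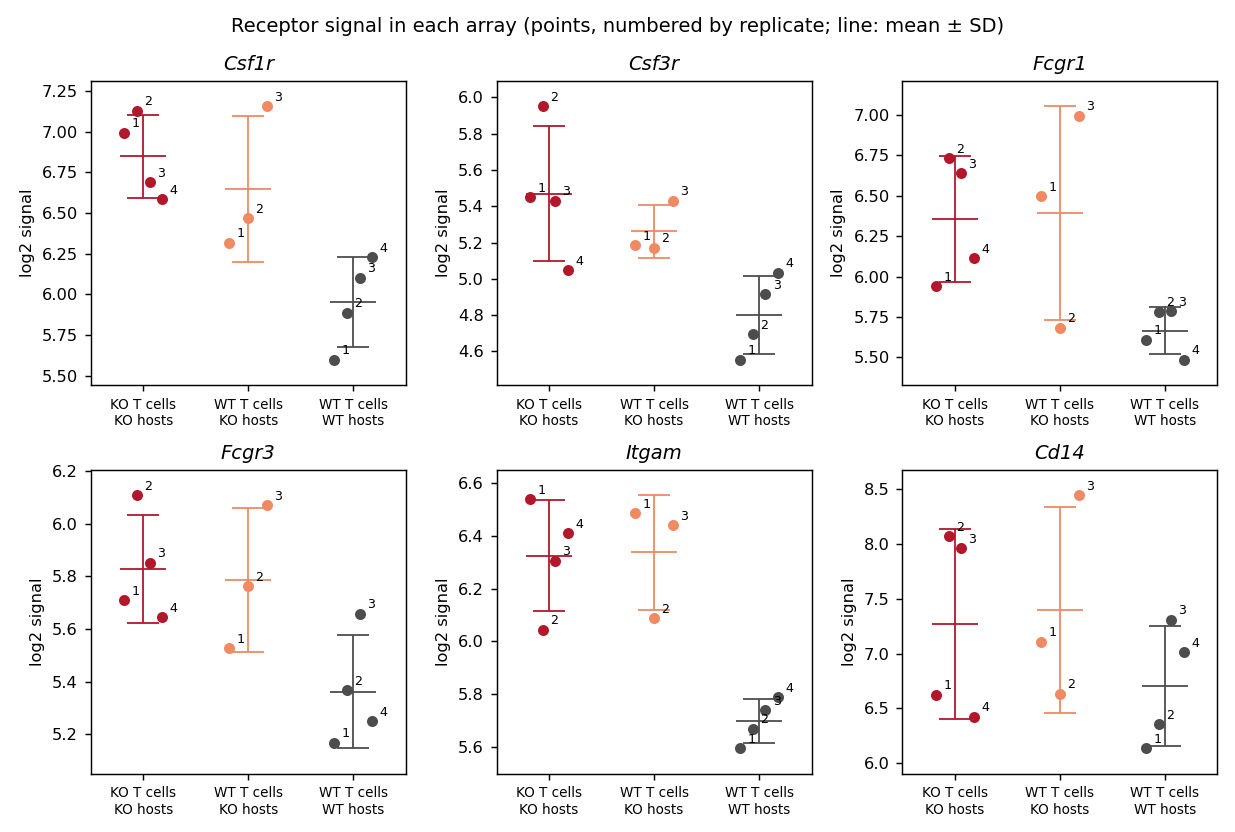
Log2 signal of each receptor (vertical axes, one scale per gene) in every array, with KO T cells in KO hosts at the left, WT T cells in KO hosts in the middle and WT T cells in WT hosts at the right. Points are arrays numbered by replicate, and lines give the mean ± SD. For Csf1r, Csf3r and Itgam no WT-host array reaches a KO-host array, while Cd14 spans 6.42 to 8.07 in KO/KO, 6.63 to 8.45 in WT/KO and 6.13 to 7.31 in WT/WT arrays.

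Csf1r, the receptor through which CSF1 sustains macrophages, gave signals of 6.99, 7.13, 6.69 and 6.58 in the KO/KO arrays, 6.32, 6.47 and 7.16 in the WT/KO arrays, and 5.60, 5.89, 6.10 and 6.23 in the WT/WT arrays. The lowest KO-host array, at 6.32, stayed above the highest WT-host array, and array 3 of WT/KO was the highest of all. Averages were 6.85 ± 0.26 (SD, n = 4) in KO/KO, 6.65 ± 0.45 (n = 3) in WT/KO and 5.95 ± 0.28 (n = 4) in WT/WT. The KO/KO mean exceeded the WT/WT mean by 0.89 (SE 0.20), a 1.86-fold ratio, and the exact permutation test, two-sided, gave p = 0.0286, the lowest value that 4 arrays against 4 can reach (limma adjusted p = 0.386). WT/KO exceeded WT/WT by 0.69 (SE 0.22; exact permutation p = 0.0286, the lowest that 3 against 4 can reach; limma adjusted p = 0.637). Without array 3 of WT/KO that difference was 0.44.

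Csf3r, the G-CSF receptor of neutrophils and monocytes, lay at 5.45, 5.95, 5.43 and 5.05 in KO/KO, at 5.18, 5.17 and 5.43 in WT/KO, and at 4.55, 4.69, 4.92 and 5.03 in WT/WT arrays. KO-host and WT-host arrays were separated by only 0.01 at the edge, between array 4 of KO/KO and array 4 of WT/WT, while array 2 of KO/KO stood highest. Means were 5.47 ± 0.37 in KO/KO, 5.26 ± 0.15 in WT/KO and 4.80 ± 0.22 in WT/WT. KO/KO was higher than WT/WT by 0.67 (SE 0.18; exact permutation p = 0.0286; limma adjusted p = 0.405), and WT/KO was higher than WT/WT by 0.46 (SE 0.19; exact permutation p = 0.0571; limma adjusted p = 0.654).

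Fcgr1, the high-affinity receptor for IgG on macrophages, read 5.94, 6.73, 6.64 and 6.11 in KO/KO, 6.50, 5.68 and 6.99 in WT/KO, and 5.61, 5.78, 5.79 and 5.49 in WT/WT arrays. WT/WT arrays stayed within 0.30 of each other, whereas WT/KO arrays spread over 1.31, and array 2 of WT/KO fell among the WT/WT arrays. On average the signal was 6.36 ± 0.39 in KO/KO, 6.39 ± 0.66 in WT/KO and 5.67 ± 0.15 in WT/WT. The difference from WT/WT was 0.69 (SE 0.25) for KO/KO, with an exact permutation p of 0.0286 and a limma adjusted p of 0.522. It was 0.72 (SE 0.27) for WT/KO (exact permutation p = 0.0857; limma adjusted p = 0.654), and 0.42 there without array 3 of WT/KO.

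Fcgr3, a low-affinity IgG receptor shared by macrophages, neutrophils and NK cells, had 5.71, 6.11, 5.85 and 5.64 in KO/KO, 5.53, 5.76 and 6.07 in WT/KO, and 5.17, 5.37, 5.66 and 5.25 in WT/WT arrays. Array 3 of WT/WT overlapped both KO-host groups, and the other 3 WT/WT arrays lay below every KO-host array. Its mean was 5.83 ± 0.21 in KO/KO, 5.79 ± 0.27 in WT/KO and 5.36 ± 0.21 in WT/WT, the smallest host difference of the 6 receptors. KO/KO exceeded WT/WT by 0.47 (SE 0.15; exact permutation p = 0.0571; limma adjusted p = 0.471) and WT/KO exceeded WT/WT by 0.43 (SE 0.17; exact permutation p = 0.0857; limma adjusted p = 0.654). In fits without WT/WT arrays 1 and 4 these differences were 0.32 and 0.27, and without array 3 of WT/KO the WT/KO difference was 0.28. A separate row shared by Fcgr3 and its inhibitory neighbour Fcgr2b averaged 4.80 ± 0.21 in KO/KO, 4.71 ± 0.14 in WT/KO and 4.56 ± 0.13 in WT/WT, and belongs to neither gene alone.

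Itgam (CD11b), the adhesion receptor chain by which leukocytes bind ICAM-1 and complement fragments, gave 6.54, 6.04, 6.31 and 6.41 in KO/KO, 6.48, 6.09 and 6.44 in WT/KO, and 5.59, 5.67, 5.74 and 5.79 in WT/WT arrays. The gap between the lowest KO-host array and the highest WT-host array was 0.26, the widest of the 6 receptors. The mean was 6.32 ± 0.21 in KO/KO, 6.34 ± 0.22 in WT/KO and 5.70 ± 0.08 in WT/WT. Differences from WT/WT were 0.63 (SE 0.13) for KO/KO and 0.64 (SE 0.14) for WT/KO, each with an exact permutation p of 0.0286. Their limma adjusted p-values were 0.317 and 0.592.

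Cd14, the lipopolysaccharide co-receptor of monocytes and macrophages, varied most between arrays of a group. It read 6.62, 8.07, 7.96 and 6.42 in KO/KO, 7.11, 6.63 and 8.45 in WT/KO, and 6.13, 6.35, 7.31 and 7.01 in WT/WT arrays. Arrays of all 3 groups overlapped, with 2 KO/KO arrays and 1 WT/KO array near 8 or above it and the other KO-host arrays within the WT/WT range. Averages were 7.27 ± 0.87 in KO/KO, 7.40 ± 0.94 in WT/KO and 6.70 ± 0.55 in WT/WT. The difference from WT/WT was 0.57 (SE 0.46; limma adjusted p = 0.694) for KO/KO and 0.69 (SE 0.50; limma adjusted p = 0.691) for WT/KO, each with an exact permutation p of 0.286. With arrays left out in turn the KO/KO difference ran from 0.30, without array 2 of KO/KO, to 0.85. The WT/KO difference ran from 0.17, without array 3 of WT/KO, to 1.08. A second row that names Cd14 alone, of lower mean signal, ran the opposite way, at 4.30 ± 0.36 in KO/KO, 4.20 ± 0.48 in WT/KO and 4.56 ± 0.45 in WT/WT. With the mean of both rows, KO/KO and WT/KO exceeded WT/WT by 0.15 and 0.16, so the size of the Cd14 difference rests on the row chosen.

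Pooling both KO-host groups (7 arrays) against the 4 WT/WT arrays, as the mean of the KO/KO and WT/KO means, gave the narrowest errors. These comparisons share the WT/WT arrays and are not separate evidence. The permutation tests here compared the plain mean of the 7 KO-host arrays with that of the 4 WT/WT arrays. Csf1r was higher by 0.79 (SE 0.18; exact permutation p = 0.00606; limma adjusted p = 0.291), and Csf3r by 0.57 (SE 0.16; exact permutation p = 0.00606; limma adjusted p = 0.368). Fcgr1 and Fcgr3 were higher by 0.71 (SE 0.23) and 0.45 (SE 0.14), with exact permutation p-values of 0.0212 and 0.0152. Itgam was higher by 0.63 (SE 0.12), with an exact permutation p of 0.00303, the lowest that 7 against 4 can reach. It ranked 6 of 15194 genes by its limma p, and its adjusted p of 0.290 did not pass. Cd14 was higher by 0.63 (SE 0.41; exact permutation p = 0.215; limma adjusted p = 0.568), and by 0.37 without array 3 of WT/KO. In all, 24 such permutation tests were run on the receptors, with no adjustment among them.

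Counted over the 6 receptors, 0 passed an adjusted p of 0.05 in any comparison, where 0% of the 15194 genes passed as well. The genes at an unadjusted limma p under 0.05, in either direction, numbered 1285 for KO/KO against WT/WT, 1136 for WT/KO against WT/WT, 519 for KO/KO against WT/KO and 1563 for all KO hosts against WT hosts. At that unadjusted threshold 5 of 6 receptors were higher in KO/KO than in WT/WT, beside 4.79% of all genes, and 5 of 6 were higher in WT/KO than in WT/WT, beside 3.62%. The pooled KO hosts gave 5 of 6, beside 5.07%. Cd14 was the exception each time. Groups did not overlap, with the KO-host arrays higher, for 4 receptors in KO/KO against WT/WT (2.61% of all genes), 3 in WT/KO against WT/WT (3.57%) and 3 in pooled KO hosts against WT hosts (0.856%). The receptors were chosen with earlier results of these arrays known, so these shares describe them and test nothing. Their median difference was 0.65 for KO/KO against WT/WT, 0.67 for WT/KO against WT/WT and 0.63 for the pooled KO hosts, while the median of all genes was -0.02, -0.03 and -0.02.

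Single arrays carried part of these counts. Without array 3 of WT/KO, 1 of 6 receptors, in place of 5, was higher at an unadjusted p under 0.05 in WT/KO than in WT/WT, and without array 1 or array 4 of WT/WT 3 of 6 were. The median difference of the 6 receptors between WT/KO and WT/WT was 0.40 without array 3 of WT/KO. A fit without WT/WT arrays 1 and 4, those of narrow range, gave 2 of 6 for WT/KO and 3 of 6 both for KO/KO and for the pooled KO hosts. Every receptor stayed higher in KO hosts in each of these fits.

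**Figure D2:**
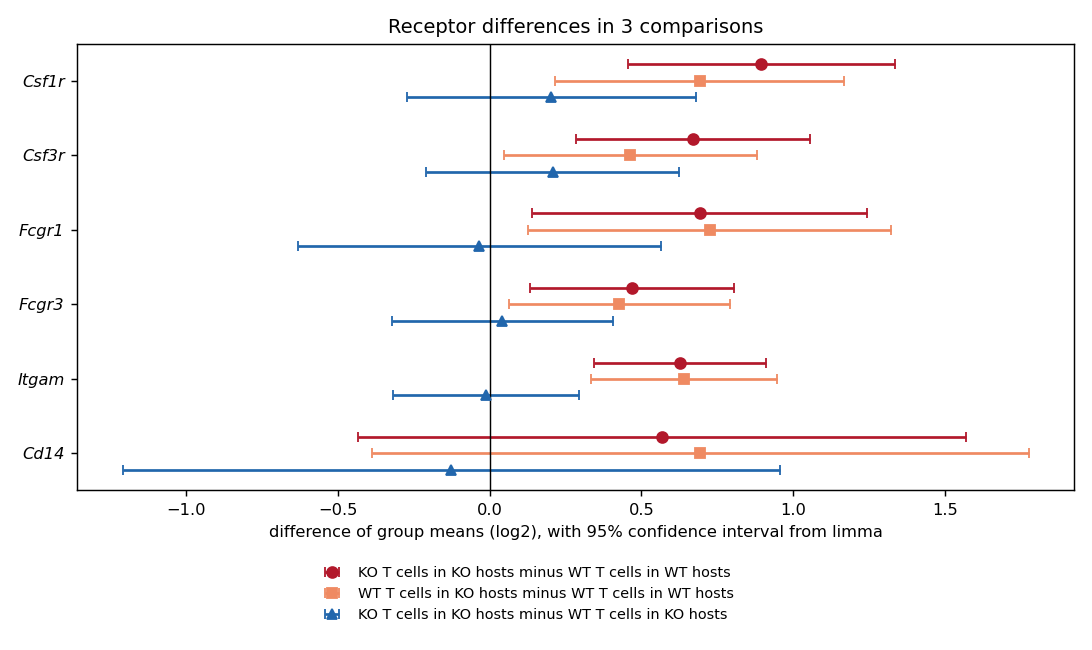
Difference of group means in log2 signal (horizontal axis) for each receptor (vertical axis) in 3 comparisons, with 95% confidence intervals from limma. Circles and squares, the comparisons with WT/WT, lie between 0.43 and 0.89, and triangles, KO/KO minus WT/KO, lie between -0.13 and 0.21.

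KO/KO and WT/KO arrays share the host genotype, and their comparison asked what galectin-3 of the T cells changes. None of the 6 receptors differed beyond the spread between arrays. The difference of KO/KO from WT/KO was 0.20 for Csf1r (95% interval -0.27 to 0.68) and 0.21 for Csf3r (-0.21 to 0.62). It was -0.03 for Fcgr1 (-0.63 to 0.56) and 0.04 for Fcgr3 (-0.32 to 0.41). For Itgam it was -0.01 (-0.32 to 0.29) and for Cd14 -0.13 (-1.21 to 0.96). All 6 limma adjusted p-values were 0.9998, and the exact permutation p-values ran between 0.457 and 0.943. At an unadjusted p under 0.05, 0 of 6 were higher, beside 1.93% of all genes, and 0 of 6 were higher without overlap, beside 2.26%. Without array 3 of WT/KO, Csf1r was higher in KO/KO by 0.46, and 1 of 6 receptors was past the unadjusted threshold and 1 of 6 free of overlap. The intervals of Csf3r and Cd14 include values as large as the pooled host differences of these genes, 0.57 and 0.63, and the intervals of the other 4 do not.

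In descending order of the mean, Csf1r, Csf3r and Fcgr3 ran KO/KO, WT/KO, WT/WT, and Fcgr1, Itgam and Cd14 ran WT/KO, KO/KO, WT/WT. The first 2 places did not differ beyond their spread for any receptor. At the step down to WT/WT no arrays overlapped for Csf1r, Csf3r and Itgam, with gaps of 0.09, 0.01 and 0.26. From KO/KO to WT/WT this held for Fcgr1 too.

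The receptors were high in largely the same arrays. Array 3 of WT/KO was among the 3 highest arrays for 6 of 6 receptors, array 2 of KO/KO for 5, and arrays 1 and 3 of KO/KO for 3 each. The 4 lowest arrays included arrays 1 and 2 of WT/WT for 6 receptors each, array 4 of WT/WT for 5 and array 3 of WT/WT for 3. The mean signal of the 6 receptors was 6.04 to 6.67 over KO/KO arrays, 5.97 to 6.76 over WT/KO arrays and 5.44 to 5.92 over WT/WT arrays. WT/KO array 2 was therefore close to the highest WT/WT array, and the groups stayed apart by 0.05.

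**Figure D3:**
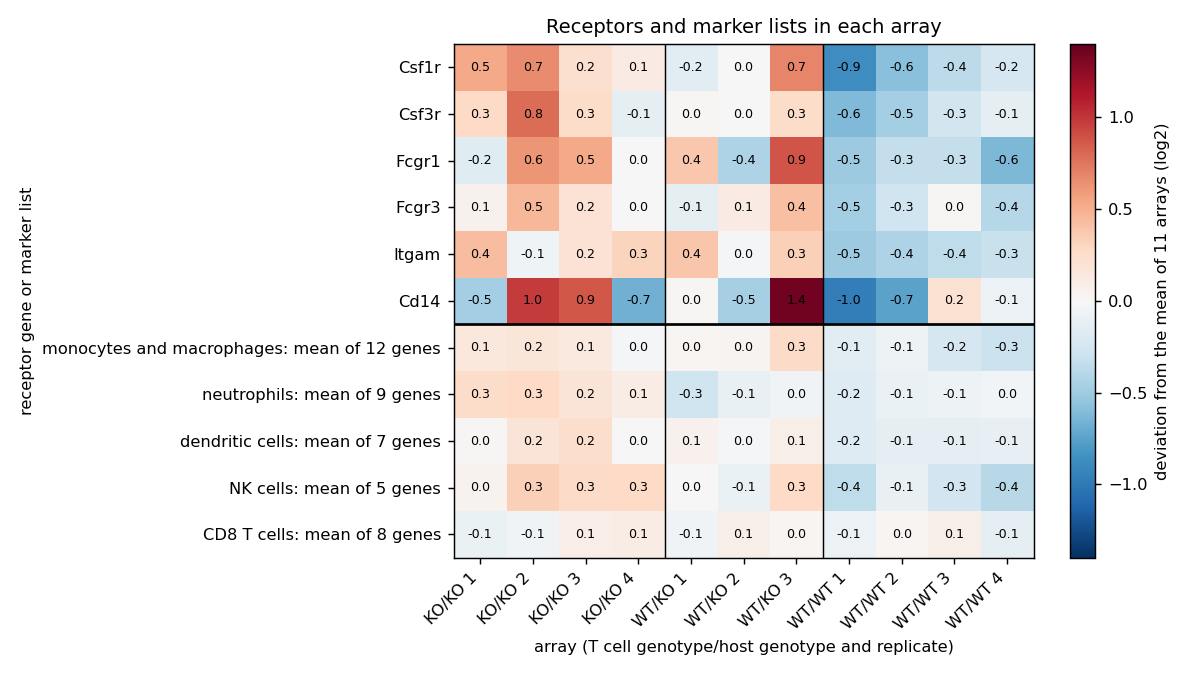
Deviation of each array (columns, as T cell genotype over host genotype with the replicate number) from the mean of all 11 arrays, in log2 units, for the 6 receptors (upper rows) and for the mean of marker lists of other cell types and of CD8 T cells (lower rows). Red is above and blue below the mean. Array 3 of WT/KO and array 2 of KO/KO are red for 6 and 5 receptors, and Itgam is the receptor below its mean in array 2 of KO/KO.

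Over the 11 arrays, the 15 pairs of receptors had Pearson correlations between 0.34 and 0.92, with a median of 0.73. The group difference adds to these values, since 4 of the arrays are low in nearly all receptors. After each group's mean was subtracted, correlations ran between -0.32 and 0.81 with a median of 0.57, and 12 of 15 were above 0. Permutation tests with 100000 resamples put 11 pairs by Pearson's r and 12 by Spearman's rho past an adjusted p of 0.05 over the 15 pairs. Arrays were shuffled across groups in these tests, so the group difference enters their p-values. The correlations after subtraction of group means were not tested. Csf1r and Csf3r were the closest pair (r = 0.922, permutation p = 0.00014, adjusted p = 0.0021; rho = 0.936, permutation p = 0.00013, adjusted p = 0.00195). Their r was 0.79 after subtraction of group means, and 0.925 without array 3 of WT/KO and array 1 of WT/WT, the arrays farthest from the median of Csf1r. Over all pairs, leaving out the 2 arrays farthest from the median of the first gene gave r between 0.33 and 0.93.

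Itgam followed the other receptors less closely over all 11 arrays. The 5 pairs with Itgam correlated between 0.34 and 0.75, and between -0.32 and 0.11 after subtraction of group means, with 1 of 5 past the adjusted threshold by Pearson's r. The 10 pairs without it correlated between 0.68 and 0.92, and between 0.42 and 0.81 after subtraction, with 10 of 10 past it. Array 2 of KO/KO shows the contrast, as it ranked 1 or 2 of 11 for the 5 other receptors and 7 of 11 for Itgam. By Spearman's rho, 2 of the 5 pairs with Itgam passed. Without array 2 of KO/KO and array 1 of WT/WT the r of Csf3r and Itgam was 0.81, against 0.60 over all arrays, and without array 2 of KO/KO and array 3 of WT/KO that of Fcgr1 and Itgam was 0.71, against 0.63. The r of Fcgr3 and Itgam was 0.59 without array 2 of KO/KO and array 1 of WT/WT, against 0.57. The difference between these 2 sets of correlations was not tested. Residual SD within groups set the receptors apart too, from 0.18 for Itgam (35.0th percentile of all genes) through 0.23 for Fcgr3, 0.27 for Csf3r, 0.32 for Csf1r and 0.42 for Fcgr1 to 0.79 for Cd14 (98.8th percentile).

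The genes most like each receptor, by Pearson's r over the 11 arrays among 15194 genes, were named as the top 3. For Csf1r they were Fcgr4 (r = 0.928), an activating Fc receptor, Csf3r (0.922) and Cd74 (0.919), the class II invariant chain. Csf3r was closest to Csf1r, Ube2f (0.895), which encodes a neddylation enzyme, and Cd74 (0.892). Fcgr1 was closest to Gatm (0.915), an enzyme of creatine synthesis, Pld4 (0.899) and Dnase1l1 (0.891). Fcgr3 followed C5ar1 (0.946), the receptor for complement C5a, Cd74 (0.938) and Ifi30 (0.927), a lysosomal thiol reductase. For Cd14 the nearest were Axl (0.899), a receptor for apoptotic cells, Tifab (0.879) and Tgfbi (0.869). Itgam instead ran nearest to Nucks1 (0.914), a nuclear DNA-binding protein, Lcp2 (0.910), the signalling adaptor SLP-76, and Sap30 (0.908), of the Sin3 repressor complex. These are the highest of many correlations over 11 arrays that also differ by group, and they describe likeness only.

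Ligands and related growth factor receptors were mixed in direction. Of 9 tested genes (of 12 listed), 3 were higher and 6 lower in KO hosts, with a median of -0.08. At an unadjusted p under 0.05, 1 of 9 was higher, beside 5.07% of all genes. Csf1, the ligand of Csf1r, averaged 5.48 ± 0.25 in KO/KO, 5.63 ± 0.17 in WT/KO and 5.47 ± 0.27 in WT/WT. Il34, its other ligand, differed by -0.10 (SE 0.10) and Csf3, which encodes the ligand G-CSF of Csf3r, by -0.42 (SE 0.22). The gene at the unadjusted threshold was Csf2rb, the signalling chain of the GM-CSF receptor, at 0.43 (SE 0.19; limma adjusted p = 0.480). Its values were 6.48 ± 0.25 in KO/KO, 6.30 ± 0.54 in WT/KO and 5.96 ± 0.20 in WT/WT.

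Of 7 other Fc receptor genes tested (of 10 listed), 3 were higher and 4 lower, with a median of -0.02. The activating receptor Fcgr4 was higher in KO hosts by 0.56 (SE 0.18; limma adjusted p = 0.421), with 5.31 ± 0.23 in KO/KO, 5.14 ± 0.45 in WT/KO and 4.67 ± 0.32 in WT/WT. Fcer1g, the gamma chain through which Fcgr1, Fcgr3 and Fcgr4 signal, was higher by 0.28 (SE 0.12; limma adjusted p = 0.480). It averaged 9.28 ± 0.12 in KO/KO, 8.97 ± 0.33 in WT/KO and 8.85 ± 0.09 in WT/WT, and its difference from WT/WT was 0.43 (SE 0.14) for KO/KO, without overlap, and 0.12 (SE 0.15) for WT/KO. Fcgr4 and Fcer1g were the 2 of 7 higher in the pooled KO hosts at an unadjusted p under 0.05, beside 5.07% of all genes. Fcgr2b itself was not analysed here, as no row used names it alone.

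The beta2 integrin family and its ligands had 7 of 8 tested genes higher and 1 lower (of 9 listed), with a median of 0.14. Itgb2, the beta chain that pairs with Itgam, differed by 0.19 (SE 0.08; limma adjusted p = 0.483), from means of 9.87 ± 0.07 in KO/KO, 9.94 ± 0.13 in WT/KO and 9.71 ± 0.06 in WT/WT. Itgal, the LFA-1 alpha chain that T cells themselves use, differed by 0.18 (SE 0.09; limma adjusted p = 0.490). F11r, a junctional adhesion molecule that binds LFA-1, differed by 0.38 (SE 0.17). With Itgb2 it made 2 of 8 higher at the unadjusted threshold, beside 5.07% of all genes. Itgad, the alpha chain of another beta2 integrin, differed by -0.10 (SE 0.27).

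Around Cd14, 7 of 10 tested genes of the toll-like receptor pathway were higher and 3 lower in KO hosts (of 14 listed), with a median of 0.33. Ly96 (MD-2), which holds lipopolysaccharide on toll-like receptor 4, was higher by 0.91 (SE 0.33; limma adjusted p = 0.459), and its arrays overlapped, at 4.53 ± 0.41 in KO/KO, 4.84 ± 0.65 in WT/KO and 3.77 ± 0.76 in WT/WT. Its WT/WT mean lay below the filter on low signal (4.33), so Ly96 passed that filter only through the KO-host groups. Ly86 (MD-1), the partner of Cd180, was higher by 0.78 (SE 0.16; limma adjusted p = 0.290). Tlr2, which also works with Cd14, was higher by 0.62 (SE 0.24; limma adjusted p = 0.475). Ticam1 (TRIF), the adaptor of the interferon branch, was lower by 0.53 on the log2 scale (difference -0.53, SE 0.19; limma adjusted p = 0.459). Thus 3 of 10, Ly96 among them, were higher at an unadjusted p under 0.05, beside 5.07% of all genes, and 1 of 10 was lower. Tlr4 lay below the filter on low signal.

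Signalling genes next to the receptors were higher in 9 of 10 cases (of 13 listed), with a median of 0.12. At the unadjusted threshold 3 of 10 were higher, beside 5.07% of all genes. Tyrobp (DAP12), an adaptor that NK cells use too, gave 8.78, 8.99, 9.07 and 8.53 in KO/KO, 8.90, 8.49 and 9.37 in WT/KO, and 7.91, 8.45, 8.11 and 7.11 in WT/WT arrays. All KO-host arrays lay above all WT-host arrays, and the difference was 0.98 (SE 0.24; limma adjusted p = 0.291). Vav1, a guanine nucleotide exchange factor of blood cells, was higher by 0.47 (SE 0.14; limma adjusted p = 0.396).

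Of 12 myeloid transcription factor genes tested (of 13 listed), 8 were higher and 4 lower, with a median of 0.06. At the unadjusted threshold 2 of 12 were higher, beside 5.07% of all genes. Spi1 had the widest host difference of the 12, with 6.81, 7.40, 6.57 and 6.29 in KO/KO, 6.41, 6.45 and 7.11 in WT/KO, and 6.01, 5.58, 5.72 and 5.44 in WT/WT arrays. The KO-host arrays were higher without overlap by 1.02 (SE 0.21; limma adjusted p = 0.290). Nfil3, a basic leucine zipper factor, averaged 7.28 ± 0.15 in KO/KO, 7.72 ± 0.15 in WT/KO and 7.22 ± 0.21 in WT/WT. Its pooled difference of 0.28 (SE 0.12; limma adjusted p = 0.477) came with 0.06 (SE 0.13) for KO/KO and 0.50 (SE 0.14) for WT/KO against WT/WT, and -0.44 (SE 0.14) for KO/KO against WT/KO. The limma p of that last value was 0.00893 unadjusted and 0.9998 adjusted. In the pooled comparison, the myeloid factors Cebpa and Irf8 differed by -0.03 (SE 0.19) and 0.05 (SE 0.10).

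**Figure D4:**
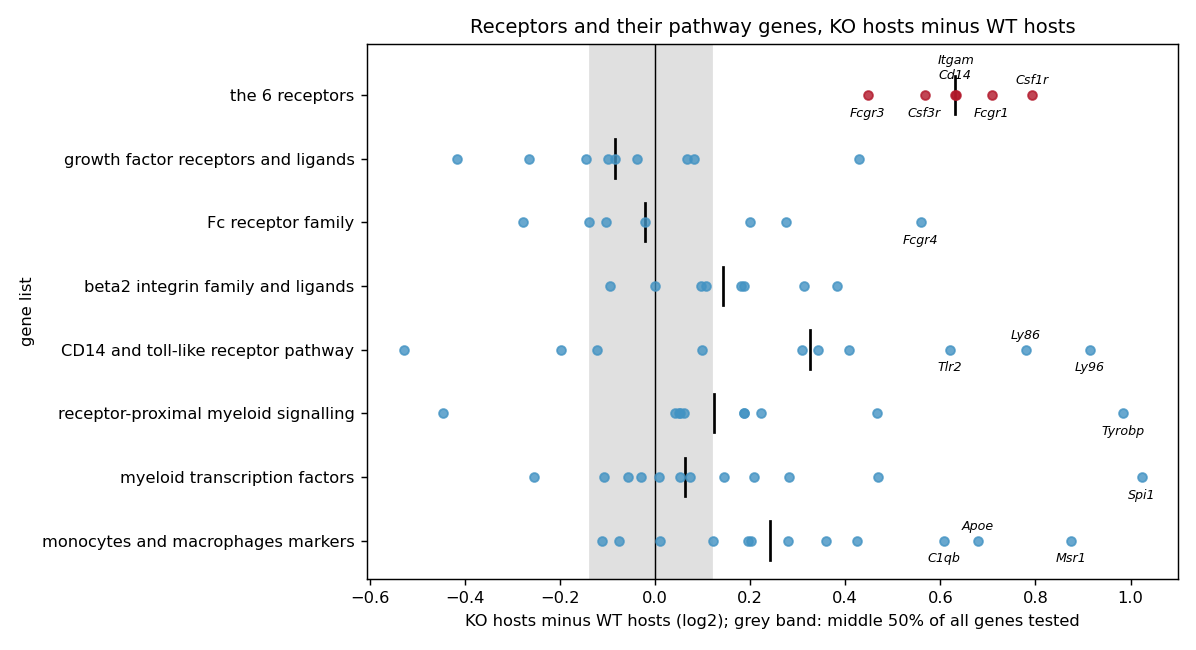
Difference between KO hosts and WT hosts (horizontal axis, log2) for the 6 receptors, 6 lists of related genes and macrophage markers (vertical axis). Points are genes, black strokes are list medians and the grey band holds the middle 50% of all genes tested. The receptors lie between 0.45 and 0.79, and the list medians between -0.08 and 0.33.

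Markers of other cell types, which the Thy1.2 sort was meant to leave behind, were measured in the same arrays. Of 12 tested macrophage and monocyte markers (of 18 listed, none of them a receptor of this set), 10 were higher and 2 lower in KO hosts, with a median of 0.24. At an unadjusted p under 0.05, 5 of 12 were higher, beside 5.07% of all genes. The mean signal of the 12 markers was 6.46 to 6.66 over KO/KO arrays, 6.52 to 6.76 over WT/KO arrays and 6.19 to 6.42 over WT/WT arrays. Every KO-host array thus lay above every WT-host array, while KO/KO and WT/KO overlapped. Apoe, a lipid carrier of macrophages, was higher by 0.68 (SE 0.13), the scavenger receptor Msr1 by 0.87 (SE 0.21) and the macrophage surface gene Adgre1 by 0.42 (SE 0.11). The WT/WT means of Msr1 (3.95) and Adgre1 (4.21) lay below the filter on low signal (4.33). Both genes passed that filter only through the KO-host groups, and both are among the 5 counted above. Trem2 was at 0.01 (SE 0.10) and Cd163 at -0.08 (SE 0.09), and Mrc1 and Mertk lay below the filter.

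Neutrophil markers split. Of 9 tested (of 13 listed), 2 were higher and 7 lower in KO hosts, with a median of -0.17. The calgranulin genes S100a8, at 1.95 (SE 0.49), and S100a9, at 0.58 (SE 0.20), were the higher ones, while the granule genes Elane and Ltf were at -0.26 (SE 0.12) and -0.21 (SE 0.08). The mean neutrophil signal was 5.13 to 5.30 over KO/KO, 4.74 to 4.98 over WT/KO and 4.84 to 4.99 over WT/WT arrays. By group, S100a8 averaged 8.20 in KO/KO, 6.67 in WT/KO and 5.48 in WT/WT, and S100a9 averaged 5.84, 4.82 and 4.75 in the same groups. KO/KO exceeded WT/KO by 1.54 (SE 0.59) in S100a8 and by 1.02 (SE 0.25) in S100a9, the second without overlap, with unadjusted limma p-values of 0.0230 and 0.00137 and adjusted ones of 0.9998. All 9 neutrophil markers tested were higher in KO/KO than in WT/KO, with a median of 0.08. At an unadjusted p under 0.05, 2 of 9 were higher, beside 1.93% of all genes. Ly6g, Ngp, Mmp8 and Retnlg lay below the filter.

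Dendritic cell markers averaged 6.06 to 6.30 over KO/KO, 6.04 to 6.15 over WT/KO and 5.88 to 5.95 over WT/WT arrays, with 5 of 7 higher. The largest pooled differences were in the class II genes Cd74 (0.69), H2-Aa (0.51) and H2-Ab1 (0.39). The other markers of this list were at 0.12 (Xcr1), 0.04 (Zbtb46), -0.08 (Flt3) and -0.17 (Cd209a). NK cell markers, a list that includes Tyrobp and Fcer1g, averaged 7.10 to 7.38 over KO/KO, 6.96 to 7.32 over WT/KO and 6.66 to 6.95 over WT/WT arrays, with 5 of 5 higher. Their pooled differences were 0.98 (Tyrobp), 0.62 (Klre1), 0.28 (Fcer1g), 0.17 (Ncr1, SE 0.20) and 0.07 (Eomes, SE 0.13). CD8 T cell markers averaged 9.78 to 9.97, 9.82 to 9.96 and 9.75 to 9.95 over the same groups, with 5 of 8 higher and a median of 0.07. Of the B cell markers 2 of 5 were higher, of the mast cell markers 0 of 2, of the tumor epithelium markers 1 of 8 and of the stroma and endothelium markers 0 of 6. No member of these lists passed the limma threshold over all genes. The part of other cell types in the receptor differences was not tested.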

How the data were processed

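Per the labels' protocols, RNA of the sorted cells was extracted with a low-input kit, amplified and hybridised to 1-colour microarrays. The authors deposited 1 table of log2 signals (115830 rows, 11 arrays, values from 1.27 to 14.4). RMA, Partek and build mm9 are named in the submitters' processing notes, with versions not given in the sources used here, and the log2 scale was read from the values. Rows were named through the platform annotation, where 25539 name 1 gene, 2300 several and 87991 none here. Of the rows with 1 gene, 24941 had an Entrez identifier in the RefSeq table and 0 symbols changed. The highest-mean row stood for a gene, and genes under the 25th percentile of the mean were left out, leaving 15194.

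limma (version 3.58.1, R 4.3.3) was fitted to all 11 arrays with group means, and p-values were Benjamini-Hochberg adjusted over all genes at 0.05. The fit was tested on simulated data. Receptor values of single genes were tested by permuting arrays (exact, two-sided), and receptor pairs with 100000 resamples. At most 21 values were identical between 2 arrays. The receptors and gene lists were chosen with earlier results of these data known. Named genes were the 6 receptors, the 3 most correlated genes of each, the 2 of lowest p per pathway list and their direct partners. Tlr2, Ticam1, Cebpa, Irf8, Itgad and the marker genes fall outside this rule and were picked with their values known. Alternatives covered normalization, filter, row choice, variance models, array weights, value range, a replicate block and each array left out.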

Additional observations from a re-analysis of the deposited data

Results flagged for a closer look

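An array far from the rest of its group was looked for in 12 groups of 4 arrays (each receptor in KO/KO and in WT/WT), with a gap over 0.829 of the group's range as the limit, and 0 were found. The 3 WT/KO arrays are too few for this check.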

How the results depend on the processing

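Across 24 alternatives (23 for the pooled KO hosts), 0 receptors passed the limma threshold in any comparison. Every receptor stayed higher in KO hosts, in 143 of 143 values for KO/KO against WT/WT, 143 of 143 for WT/KO against WT/WT and 137 of 137 for the pooled KO hosts. The count of receptors higher at an unadjusted p under 0.05 moved by over 1.5 times in 2 settings of the fit. With the value range as a covariate it was 3 for KO/KO against WT/WT, 3 for WT/KO against WT/WT and 3 for the pooled KO hosts, and without the 2 arrays of narrowest range it was 3, 2 and 3. It was 4, 4 and 4 with a filter at the 50th percentile, which drops Csf3r, and 4 for WT/KO against WT/WT with the replicate block. With arrays left out in turn it was 1 to 5 for WT/KO against WT/WT and 0 to 1 for KO/KO against WT/KO, where the count without overlap was also 0 to 1. The cause was not tested.

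All genes past the threshold numbered 0 in the main setting. For KO/KO against WT/WT there were 3 with median centring, 2 with that filter, 2 with rows of a gene averaged, 3 with the replicate block and 0 to 1 with arrays left out. For the pooled KO hosts there was 1 with that filter, 1 with averaged rows, 1 with robust variance, 1 with array weights, 1 with the replicate block and 0 to 1 with arrays left out. None was a receptor.

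For KO/KO minus WT/KO the sign turned for Fcgr3 with array weights (-0.0069) and for Fcgr1 with the replicate block (0.037). With arrays left out, differences ran from -0.39 to 0.27 for Fcgr1, -0.088 to 0.18 for Fcgr3, -0.14 to 0.080 for Itgam and -0.51 to 0.40 for Cd14. The deviations of same-numbered arrays correlated between -0.11 and 0.12, over 0.1 in 2 of 10 pairs. Their median was 0.036, against -0.0074 in the 30 pairs of unlike number. Whether same-numbered arrays share more than a number cannot be told from these values. With the replicate block, too, 0 receptors passed the adjusted threshold. Arrays carry no read depth, and their number limits these values.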
